A study of Carica papaya with 55 samples.

Results

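The 38 features described here are both copies of 19 gene pairs of the papaya (Carica papaya) sex-linked regions that have a copy on each sex chromosome, the X and the male-specific part of the Y. They were chosen by name: every pair whose name starts with PX, PY or PXY followed by CpXY and that is present on both chromosomes. There were 6 PX pairs, 10 PY pairs and 3 PXY pairs, out of 68 X and Y pairs and 193 features in the tables (97 on the X and 96 on the Y). The files do not spell out what the prefixes stand for and give no function for any of these genes. The rule uses names alone, though it was proposed with earlier results of these data known.

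The series was deposited with a study of the promoter of CpMDAR4, which is not analysed here, and holds RNA-seq counts of sex-linked features in flowers of the papaya genotype AU9, from 34 male and 21 female libraries in 19 groups. In every group the plants had that genotype and no treatment is named. Male groups were buds under 1 mm long (S0), stamens and pistillodes (the aborted pistil of male flowers) at S1 to S5, and pollen at S5. Female groups were buds at S0, pistils at S1 to S5, and ovules at S5. Bud length was 1 to 1.5 mm at S1, 2 to 4.5 mm at S2, 4.5 to 6.5 mm at S3, 7 to 12 mm at S4 and 15 to 20 mm at S5, and the labels place S1 to S3 before meiosis, S4 after it and S5 at maturity. Groups had 3 libraries, except for 2 libraries of S2 pistillodes and 2 of S3 pistillodes. The labels do not say whether libraries of a group came from separate plants, so p-values measure the spread between these libraries, which may be technical. The samples are bulk organs, in which fewer cells with a transcript and less transcript per cell cannot be told apart.

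Papaya males carry an X and a Y chromosome and females carry a pair of X chromosomes. The male-specific region of the Y does not recombine with the X, and genes present on both descend from common ancestral genes whose copies have since diverged. In such regions Y copies can lose parts of their sequence or their expression over time, while X copies continue to recombine in females. A female flower has no Y copy to transcribe. Counts at a Y copy in a female library thus show how far other reads, such as those of the X copy, are counted there. They do not show how far reads of the Y copy are counted at the X copy in males.

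The classes differed in the annotated exon length of their copies. The Y copy had longer exons than the X copy in 4 of the 6 PX pairs, shorter in 1 and equal in 1, with a median Y length of 105% of the X length. In PY pairs the Y copy was shorter in 8 of 10, longer in 1 and equal in 1, with a median of 95.5%. PXY copies were equal in 2 pairs and differed by 2 bases in the third. Among the other 49 pairs, 15 Y copies were shorter, 12 longer and 22 equal, with a median of 100%. The largest gap among the 19 pairs was that of PYCpXY7, with 990 bases in 7 exons on the X (X:2253158-2263261, minus strand) and 479 bases in 5 exons on the Y (Y:3437881-3438796, minus strand). In the other direction, PXCpXY10 had 1427 bases in 14 exons on the X (X:2921677-2940775, minus strand) and 1833 bases in 16 exons on the Y (Y:1381272-1417086, minus strand). Coordinates are those of the files, whose build the sources used here do not name.

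Copies of 5 of 6 PX pairs, 5 of 10 PY pairs and 1 of 3 PXY pairs lay on the same strand of their chromosomes. Both copies had a single exon in 3 PX, 6 PY and 1 PXY pairs. Of the 38 features, 8 lay within the span of another feature. PYCpXY23 lay within PXYCpXY1 on both chromosomes, PYCpXY2 and PYCpXY3 lay within CpXY3 on both, PXCpXY21_X lay within PYCpXY22_X, and PYCpXY5_MSY lay within CpXY4_MSY. No exon of a member overlapped an exon of another feature, but the counting used no strand, so reads of a host gene's intron that crossed these exons cannot be told apart from their own.

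Over all 55 libraries the 38 features took 5.90 to 12.2% of the counts in a library (median 10.4%). Library totals ran between 21475 counts in a pistillode library and 106846 in a stamen library and cover sex-linked features only, so they are not sequencing depth. The Y feature CpY19_MSY, a check of the sex labels, had 148 to 880 counts in male libraries and 0 or 1 in female ones. Levels are given as CPM, counts relative to these totals after TMM scaling, per kilobase of exon (CPM per kb), and means carry the SD over the libraries of a group.

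In females, which lack the Y, the Y copy of most pairs took almost no counts. There were 13 members with 100 or more counts in females, of which 9 had under 5% of them at the Y copy, 2 had 5 to 25% and 2 had over 25%. The 9 were PXCpXY14 with 22 of 23513 counts, PXCpXY22 with 3 of 4669, PYCpXY3 with 0 of 268, PYCpXY5 with 3 of 16010, PYCpXY7 with 5 of 20183, PYCpXY22 with 35 of 23068, PYCpXY30 with 17 of 411, PYCpXY31 with 0 of 156 and PXYCpXY1 with 0 of 13955. With 0 of 13955 counts, the female Y share of PXYCpXY1 is at most 0.0215%, counting error alone. Among the other 49 pairs, 43 had 100 female counts, and of these 12 were under 5%, 8 between and 23 over 25%.

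The 4 exceptions bound how their Y values can be read. PXCpXY10 had a female Y share of 7.28% (95% exact binomial interval 6.90 to 7.68%, counting error only) and PXCpXY6 one of 17.7% (17.0 to 18.3%). PYCpXY28, whose copies have 8 exons and 1332 bases each, had 28.6% (27.9 to 29.4%). PXYCpXY4 went against its copy labels, with 86.0% (82.6 to 88.9%) of its female counts at the copy named MSY, and its values are given under those names as deposited. Counts at the Y copies of these 4 pairs are therefore not counts of Y transcripts alone, and reads that map to several places were counted at each of them. In males, counts at their X copies can hold reads of the Y copies in the same way, which female libraries cannot show.

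**Figure D1:**
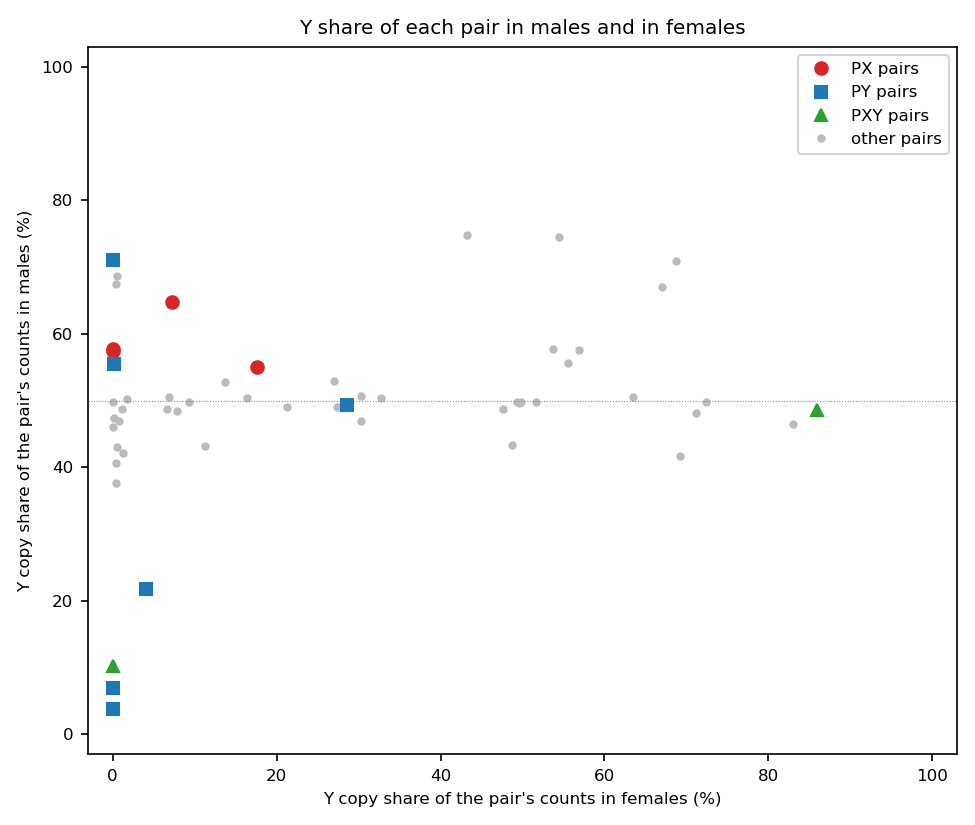
Share of a pair's counts that fell on the Y copy in females (x axis, %) and in males (y axis, %), for pairs with at least 100 counts in each sex, 12 members and 43 other pairs. The points of PXCpXY14 and PXCpXY22 overlap at a male share of 57.4 and 57.8%, and 4 members, PYCpXY5, PYCpXY7, PYCpXY30 and PXYCpXY1, lie below every other pair on the y axis.

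In males the PX pairs had higher Y shares of the pair's counts, by their median, than the PY pairs. All 5 PX pairs with at least 100 male counts had a Y share over 50%, between 55.02% in PXCpXY6 and 86.3% in PXCpXY21, with a median of 57.8%. The male shares of PXCpXY6, PXCpXY10 and the PY pair PYCpXY28 are not shares of Y transcripts alone. Their Y copies took 17.7, 7.28 and 28.6% of the pair's counts in females. The 6 PY pairs with that many counts ranged between 3.83% in PYCpXY7 and 71.1% in PYCpXY3 (median 35.6%), with 2 over 50%. Of the PXY pairs with that many counts, PXYCpXY1 held 10.2%. PXYCpXY4 had 48.6% of its 667 male counts at the copy named MSY and 51.4% at the copy named X, and since most of its female counts fell on the copy named MSY, which of its copies is the Y copy is not settled and it is not ranked. The 46 other pairs with 100 male counts ranged between 37.6 and 95.2% with a median of 49.8%, and 20 were over 50%. Thus 4 of the 13 counted members, namely PYCpXY7, PYCpXY5, PXYCpXY1 and PYCpXY30, had a lower Y share than every one of those 46 pairs. Of the 43 other pairs with 100 female counts, 23 had over 25% of these at the Y copy, against 2 of 13 members. The male shares of those 23 are not shares of Y transcripts alone. The lowest other pair, CpXY13 with 37.6%, had a female Y share of 0.475%. With few pairs a class and members that share chromosomes, the classes were not set against each other by a test.

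Exon length moved these shares little except where copies differ most. Per base of exon, PXCpXY6 had a male Y share of 49.7% and PXCpXY10 one of 58.8%, below their shares of counts (55.02 and 64.7%). PYCpXY3 had 80.0% and PYCpXY7 7.60% per base, above their shares of counts. On that scale 4 of the 5 PX pairs stayed over 50% and the medians were 58.0% for PX and 35.6% for PY pairs.

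**Figure D2:**
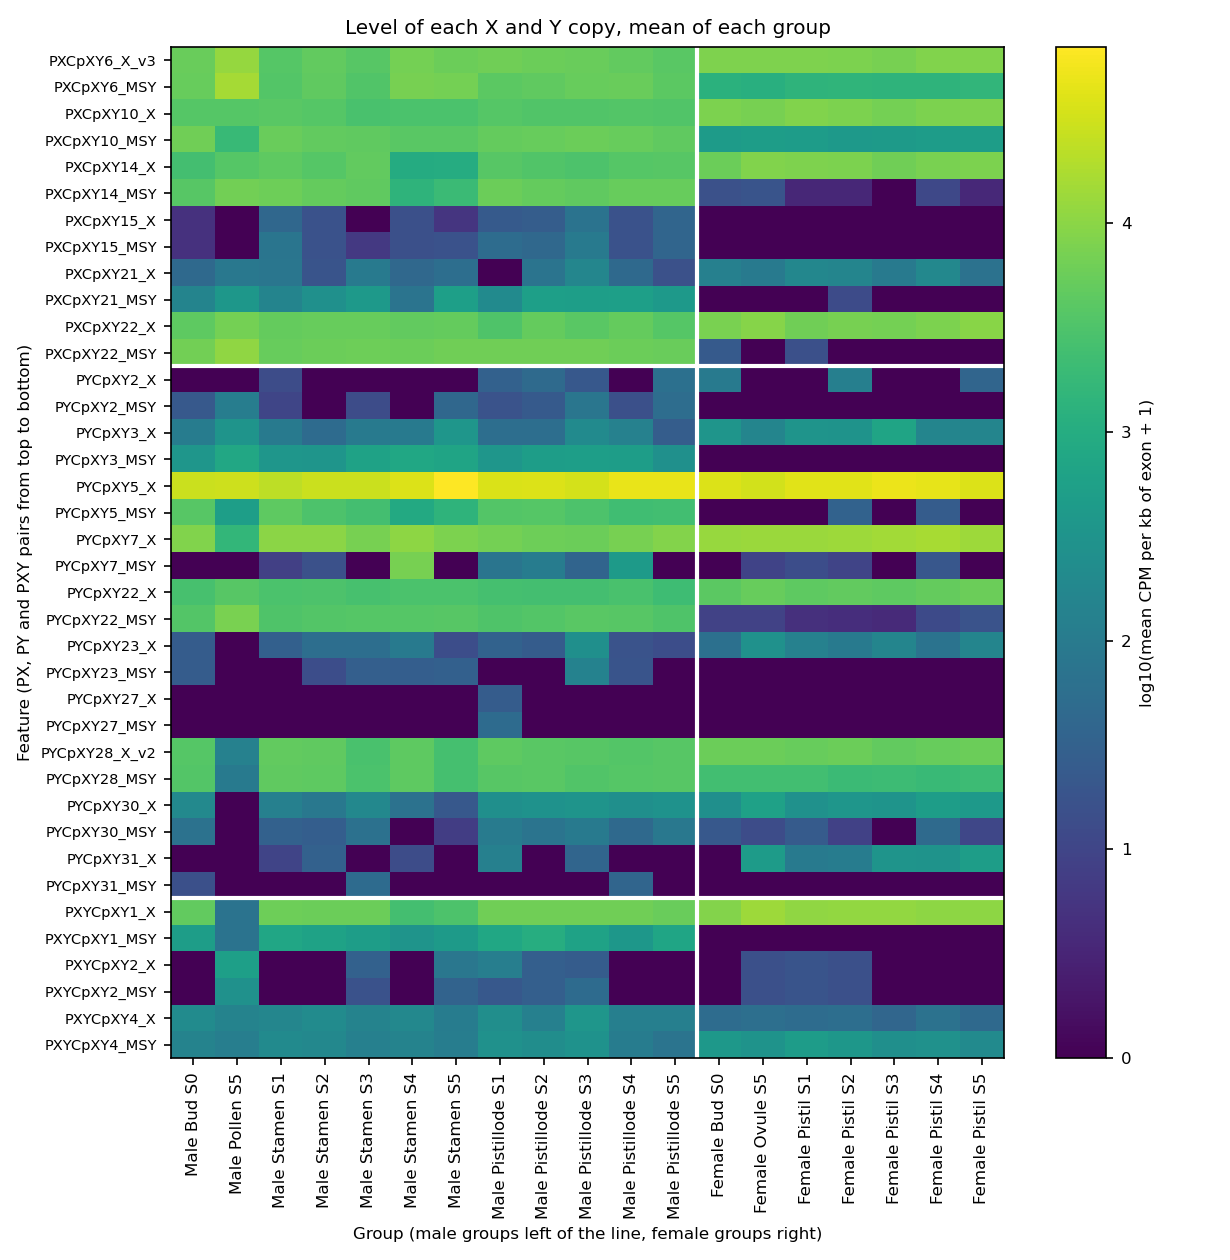
Mean level of each of the 38 copies in each of the 19 groups, as log10 of CPM per kb of exon plus 1, with male groups left of the white line and female groups right. Y copies are dark in female groups except those of PXCpXY6, PXCpXY10, PYCpXY28 and PXYCpXY4, and PYCpXY7_MSY is bright in S4 stamens.

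Among PX pairs, PXCpXY14, PXCpXY10, PXCpXY6 and PXCpXY22 carried nearly all counts of the class. PXCpXY14_X (X:2967667-2979678, minus strand, 14 exons) averaged 4371 ± 595, 3645 ± 287, 4716 ± 838, 951 ± 167 and 994 ± 135 CPM per kb in stamens at S1 to S5 and 3750.2 ± 308 in pollen. In pistillodes at S1 to S5 it averaged 3774 ± 388, 3402 ± 339.6, 3089 ± 217, 3716 ± 679 and 3901 ± 633 CPM per kb, in male buds 2495 ± 88.3. Female levels were 7928 ± 202, 7795 ± 849.5, 6293 ± 1625, 7361 ± 802 and 7639 ± 1126 CPM per kb in pistils at S1 to S5, 8583 ± 451 in ovules and 5656 ± 506 in buds. The S4 and S5 stamens stood below all other groups at this copy.

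PXCpXY14_MSY (Y:1542824-1549851, minus strand, 13 exons) averaged 5902 ± 936, 4932 ± 337, 4565 ± 451, 1414 ± 9.35 and 2019.6 ± 676 CPM per kb in stamens at S1 to S5, 5689 ± 284, 5006 ± 832, 4559 ± 22.6, 5164 ± 1461 and 5149 ± 755 in pistillodes, 6593 ± 1423 in pollen and 3771 ± 172 in male buds. Its female counts were 0 to 9 per library, with counts in 9 of 21 libraries. Low late stamens were thus seen at both copies. The Y share of the pair was over 50% in all male groups but S3 stamens (48.8 ± 2.21%).

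PXCpXY10_X averaged 3941 ± 342, 3695 ± 81.2, 2815 ± 71.8, 2938 ± 31.1 and 2967 ± 515 CPM per kb in stamens at S1 to S5, 3635 ± 117, 3318 ± 116, 3411 ± 257, 3503 ± 261 and 3304 ± 190.3 in pistillodes, 3693 ± 437 in pollen and 3679.7 ± 203 in male buds. Females had 8341 ± 988, 7786 ± 252, 6708 ± 148, 7658 ± 81.3 and 7891 ± 96.6 CPM per kb in pistils, 7155 ± 674 in ovules and 7657 ± 548 in buds. PXCpXY10_MSY averaged 5440.0 ± 680.3, 4738 ± 502, 4589.6 ± 98.5, 4063 ± 524 and 4033 ± 316 CPM per kb in stamens, 4946 ± 258, 5265 ± 243, 5798 ± 261, 5172 ± 438 and 4628 ± 486 in pistillodes, 1804 ± 203 in pollen and 6168 ± 438 in male buds. Pollen was thus the lowest male group at the Y copy and within the range of the others at the X copy. In females the Y copy held 404 to 495 CPM per kb as group means.

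PXCpXY6_X_v3 averaged 3628 ± 656, 4726 ± 432, 3772 ± 394, 6709.5 ± 969 and 5809 ± 1244 CPM per kb in stamens at S1 to S5, 6197 ± 427, 5799 ± 158, 5465 ± 76.2, 4689 ± 977 and 3998 ± 572 in pistillodes, 12034 ± 1285 in pollen and 5513 ± 543 in male buds. Pistils had 7907 ± 1051, 7874 ± 661, 7049 ± 143, 8294 ± 212 and 8530.0 ± 192, ovules 7890.4 ± 836 and female buds 7994 ± 369 CPM per kb. PXCpXY6_MSY averaged 3553 ± 828, 4624 ± 736, 3344 ± 608, 7201 ± 603 and 6776 ± 1498 CPM per kb in stamens, 4199 ± 209, 4521 ± 1136, 5148 ± 844, 5456 ± 887 and 4160.3 ± 846 in pistillodes, 15693 ± 926 in pollen and 5169 ± 481 in male buds. Both copies were highest in pollen of all 19 groups. The Y copy took 17.7% of the pair's female counts, so these copies are not separate observations. PXCpXY22_X had group means of 3217 to 6864 CPM per kb in males and PXCpXY22_MSY of 5177 to 10880.4, the Y copy being highest in pollen as well.

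The remaining PX pairs were close to the counting floor. PXCpXY21_MSY had 253 counts over the 34 male libraries and its X copy 40, so that 33 of 34 male libraries had counts at the Y copy. PXCpXY15 had 39 counts at its X copy and 59 at its Y copy in males, and 0 at both in all 21 female libraries. Its Y copy had counts in 20 of 34 male libraries, and the most, 6 at the X copy and 11 at the Y copy, were in S1 stamens (replicate 3).

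Among PY pairs, PYCpXY22, PYCpXY5, PYCpXY7 and PYCpXY28 were well expressed. PYCpXY22_X averaged 2949.7 ± 478, 3117 ± 88.5, 2676 ± 255, 2943 ± 94.3 and 2963 ± 547 CPM per kb in stamens at S1 to S5, 2651 ± 51.2, 2520.4 ± 637, 2442 ± 341, 2827 ± 147 and 2159 ± 295 in pistillodes, 3767 ± 660.0 in pollen and 2763 ± 189.6 in male buds. Pistils had 4399 ± 359, 4694 ± 271, 4419 ± 729.7, 4888 ± 83.9 and 5712 ± 979, ovules 5238 ± 1031 and female buds 4208 ± 297 CPM per kb. PYCpXY22_MSY averaged 3228 ± 399.6, 3553 ± 186, 3699 ± 311, 3686 ± 84.3 and 3839 ± 1001 CPM per kb in stamens, 3241 ± 96.1, 3479 ± 907, 4092 ± 632, 3808 ± 391 and 3213 ± 815 in pistillodes, 7351 ± 446 in pollen and 3599 ± 200.2 in male buds. Its male libraries all had a Y share between 50.1 and 68.2% (median 54.3%), and its pooled share of 55.4% lay inside the range of the PX pairs.

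PYCpXY5_X (X:2130601-2130861, minus strand, 1 exon of 261 bases) had the highest level per kilobase of all members. It averaged 22819 ± 2198, 28322 ± 2591, 29012 ± 5018, 39172 ± 7239 and 69667 ± 14267 CPM per kb in stamens at S1 to S5, 37288 ± 2216, 39398 ± 2549, 33792 ± 10108, 48348 ± 6176 and 48606 ± 2069 in pistillodes, 29590.3 ± 3472 in pollen and 27992 ± 3126 in male buds. Pistils had 41418 ± 3698, 41740.1 ± 1883, 50017 ± 3058, 45748 ± 2795 and 39265 ± 2975, ovules 32905 ± 1421 and female buds 38716 ± 3618 CPM per kb. PYCpXY5_MSY (Y:3712537-3712796, minus strand, 260 bases) averaged 4307 ± 817, 3099 ± 413, 2475 ± 379, 889 ± 388 and 1394 ± 713 CPM per kb in stamens, 3586 ± 282, 3674 ± 899, 3026 ± 84.7, 2324 ± 526 and 2378 ± 559.5 in pistillodes, 523 ± 493 in pollen and 3900.5 ± 339 in male buds. The X copy was highest in S5 stamens, where the mean of the Y copy was below that of every male group but pollen and S4 stamens. An exon of this length can be shorter than a sequenced fragment, so its level per kilobase is best read between groups and not against other genes.

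PYCpXY7_X averaged 9815 ± 1528, 10207 ± 463, 7200.2 ± 833, 10583 ± 830.2 and 7579 ± 2327 CPM per kb in stamens at S1 to S5, 6688 ± 292, 6007 ± 1448, 5801 ± 180.2, 7163 ± 793 and 8801 ± 1374 in pistillodes, 1587 ± 328 in pollen and 8428 ± 404 in male buds. Pistils had 13136 ± 1251, 13311 ± 809, 14592 ± 1585, 16162 ± 1420.0 and 13633 ± 305, ovules 13186 ± 59.3 and female buds 12529 ± 1456 CPM per kb. Its Y copy was detected in 13 of 34 male libraries. PYCpXY7_MSY averaged 7.33 ± 12.7, 14.9 ± 13.5, 0, 6936 ± 3758 and 0 CPM per kb in stamens, 74.6 ± 77.3, 106 ± 150.4, 35.1 ± 5.83, 443 ± 477 and 0 in pistillodes and 0 in pollen and male buds. PYCpXY28_X_v2 and PYCpXY28_MSY stayed near each other in every male group but pollen, with Y shares of 43.7 to 53.3% (median 49.5%) over the 31 male libraries with at least 20 counts, against 17.9 to 36.4% in female libraries. Pollen had 13 X and 9 Y counts in all, and each pollen library was under that minimum.

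The other 6 PY pairs had low counts. PYCpXY3_MSY had counts in 34 of 34 male libraries, 1 to 29 each, and in 0 of 21 female libraries, and its Y share was 71.1% over males. PYCpXY30 had 251 X and 70 Y counts in males, PYCpXY2 8 and 21, PYCpXY23 37 and 16, PYCpXY31 15 and 6, and PYCpXY27 1 and 2. At least 20 counts of the pair were reached in 10 male libraries for PYCpXY3 and in 4 for PYCpXY30. The counts of PYCpXY2, PYCpXY23, PYCpXY31 and PYCpXY27 are too few for a share in single libraries.

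PXYCpXY1 was the expressed PXY pair. PXYCpXY1_X (X:3455797-3493735, plus strand, 4 exons) averaged 5970.0 ± 547, 5728 ± 96.0, 5651 ± 199, 2504 ± 173 and 3058 ± 364 CPM per kb in stamens at S1 to S5, 6170.3 ± 678, 6112 ± 402, 6155 ± 787, 6203 ± 825 and 5449 ± 334 in pistillodes, 69.4 ± 35.4 in pollen and 4754 ± 669.7 in male buds. Pistils had 11082 ± 262, 11457 ± 473, 11265 ± 618, 10632 ± 642 and 10363 ± 825, ovules 13454 ± 1272 and female buds 8934 ± 713 CPM per kb. PXYCpXY1_MSY (Y:7422059-7457244, minus strand, 3 exons) averaged 726 ± 42.5, 624 ± 188, 488 ± 156, 319 ± 33.2 and 435 ± 57.9 CPM per kb in stamens, 765 ± 293, 1020.3 ± 596, 629 ± 75.2, 367 ± 123 and 698 ± 88.4 in pistillodes, 67.9 ± 28.7 in pollen and 500.0 ± 141 in male buds. It had 0 counts in all 21 female libraries and 1 or more in all 34 male ones.

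PXYCpXY4 and PXYCpXY2 had few counts. PXYCpXY4_X averaged 166 ± 39.4, 216 ± 94.6, 143 ± 60.6, 179.5 ± 30.4 and 105 ± 49.4 CPM per kb in stamens at S1 to S5, 247 ± 117, 128 ± 4.67, 349 ± 6.05, 122 ± 112 and 123 ± 56.8 in pistillodes, 143 ± 81.0 in pollen and 212 ± 35.6 in male buds, against 50.9 ± 32.5, 56.3 ± 34.4, 38.2 ± 20.5, 67.3 ± 22.1 and 44.7 ± 10.8 in pistils, 56.5 ± 16.0 in ovules and 50.5 ± 51.1 in female buds. PXYCpXY4_MSY averaged 209 ± 41.7, 182 ± 122, 127 ± 22.1, 147 ± 43.8 and 110.2 ± 47.1 CPM per kb in stamens, 282 ± 154, 235 ± 120.5, 289 ± 55.8, 108 ± 129 and 73.5 ± 44.1 in pistillodes, 115 ± 101 in pollen and 146 ± 17.6 in male buds, against 479.7 ± 211, 363 ± 78.1, 252 ± 60.2, 278 ± 91.4 and 208 ± 33.0 in pistils, 309 ± 74.2 in ovules and 375 ± 18.1 in female buds. The copy named X was thus the higher one in males relative to females, and the copy named MSY the lower one. PXYCpXY2_X had 5, 1 and 6 counts in the pollen libraries and 0 to 3 in every other library, and its Y copy 4, 0 and 2 in pollen and 0 to 2 elsewhere.

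**Figure D3:**
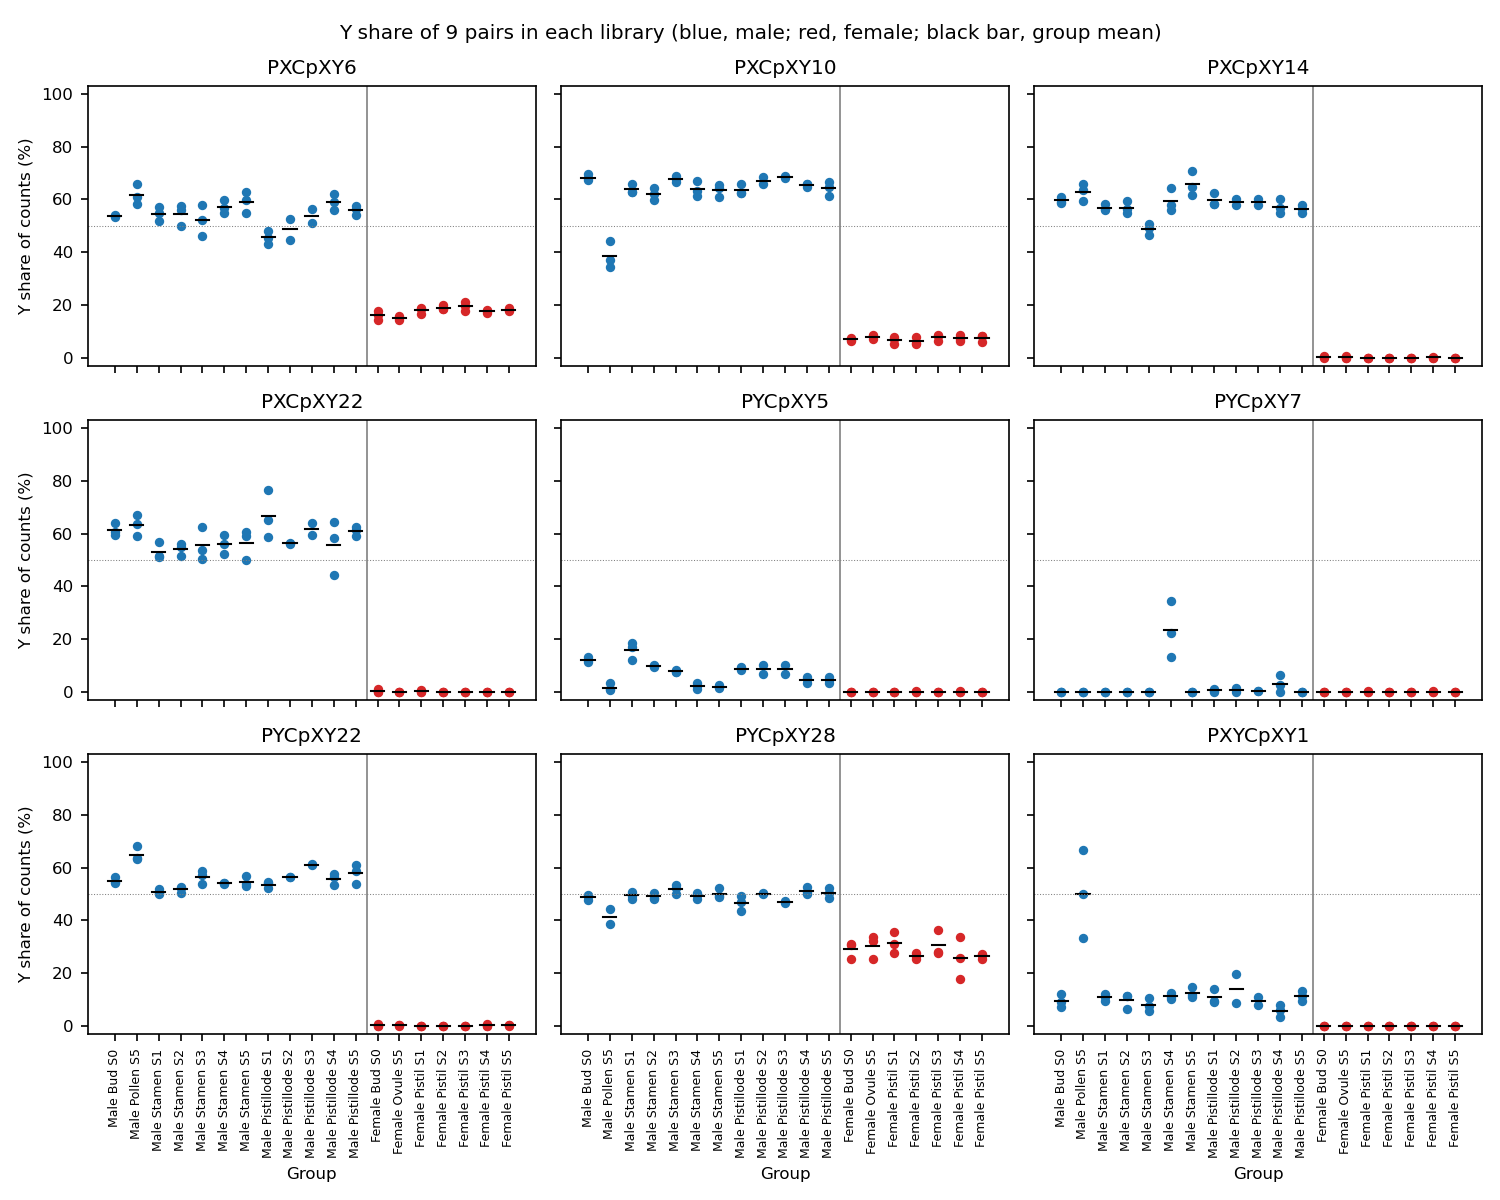
Share of the pair's counts at the Y copy (%) in each library, for the 9 pairs whose Y to X ratio was tested, with male groups left of the grey line and female groups right. PXCpXY10 in pollen lies below its other male groups, PYCpXY7 is above 10% in S4 stamens alone, and PYCpXY5 is lower in S4 and S5 stamens than in S1 to S3 stamens.

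Male and female organs were compared at the level of single copies, in buds and between pistillode and pistil. In male buds, 10 of the 12 Y copies tested were higher than in female buds and 1, PXYCpXY4_MSY, was lower, while 9 of the 14 X copies tested were lower and 1, PXYCpXY4_X, was higher (edgeR quasi-likelihood test, adjusted p under 0.05). In all, 11 of 26 members tested were higher and 10 lower, beside 37.4% higher and 27.3% lower among the 139 features tested. In pistillodes against pistils the counts were 10 higher and 1 lower of 12 Y copies and 1 higher and 10 lower of 14 X copies, beside 46% higher and 36.7% lower among all features. By class, 4 of 4 PX, 4 of 7 PY and 1 of 3 PXY X copies tested were lower in male buds, and 4 of 4, 5 of 7 and 1 of 3 in pistillodes. Among the other pairs, 22 of 46 X copies were lower in buds and 31 of 46 in pistillodes. Members that passed the filter through the male groups alone had to be higher there, and the counts of Y copies are given as a description.

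The Y copies differed in their female counts. PYCpXY5_MSY had 79, 78 and 97 counts in male buds and 0 in female buds, at least 64.7-fold higher if the female group is set to 3 counts in all. PYCpXY22_MSY had 829, 932 and 980 counts in male buds and 0, 5 and 0 in female buds, and PXCpXY14_MSY 616, 662 and 726 and 0, 5 and 1. The groups did not overlap at these copies. At the partly shared pairs the difference was smaller, as at PXCpXY10_MSY with a log2 fold of 3.79 (SE 0.16, edgeR adjusted p = 6.65e-24), PXCpXY6_MSY with 2.05 (SE 0.18, edgeR adjusted p = 2.84e-13) and PYCpXY28_MSY with 0.60 (SE 0.22, edgeR adjusted p = 0.0167). PXCpXY22_MSY had 206, 210 and 295 counts in male buds and 0, 2 and 0 in female buds. Over S1 to S5, PXCpXY14_MSY had 8104 counts in pistillodes and 7 in pistils, PYCpXY22_MSY 7997 and 24, PXCpXY22_MSY 1907 and 1, PYCpXY5_MSY 571 and 3, and PXYCpXY1_MSY 428 and 0. PYCpXY7_MSY had 0 counts in all 6 bud libraries, so this Y copy was not detected in male buds, where the X copy had 653, 669 and 766 counts.

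The X copies called lower in males had log2 folds of different sizes, and 5 of 14 in buds and 4 of 14 in pistillodes were not called lower. In buds PXYCpXY1_X had a log2 fold of -0.91 (edgeR adjusted p = 3.19e-09) and PXCpXY22_X of -0.74 (edgeR adjusted p = 0.00565). There PXCpXY14_X had a log2 fold of -1.18 (SE 0.16, edgeR adjusted p = 1.82e-08) and PXCpXY10_X of -1.06 (SE 0.10, edgeR adjusted p = 3.23e-12), while PYCpXY5_X had -0.47 (SE 0.14, edgeR adjusted p = 0.00419) and PXCpXY6_X_v3 -0.54 (SE 0.14, edgeR adjusted p = 0.00118). Between pistillode and pistil PXCpXY10_X had -1.16 (SE 0.05, edgeR adjusted p = 1.26e-24), PYCpXY3_X -1.83 (SE 0.46, edgeR adjusted p = 0.00036), PYCpXY7_X -1.05 (SE 0.07, edgeR adjusted p = 2.51e-17), PXCpXY14_X -1.05 (SE 0.08, edgeR adjusted p = 1.61e-16), PYCpXY22_X -0.93 (SE 0.07, edgeR adjusted p = 1.41e-15) and PYCpXY28_X_v2 -0.44 (SE 0.09, edgeR adjusted p = 4.11e-05). These folds rest on the scaling. With TMM on X features alone the median of all features moved to 0.65 in buds, against 0.08 with all features, and to 0.79 in pistillodes, against 0.19, and the X copies called lower were 3 of 14 in buds and 7 of 14 in pistillodes. On that scale the median of the X copies was -0.02 in buds, against -0.59 with all features, PXCpXY22_X was no longer called lower there, and the copy of PXYCpXY4 named MSY was called lower in neither comparison. The bud call at PXYCpXY4_MSY, a log2 fold of -1.35 (edgeR adjusted p = 0.0251), was also lost without a filter, without replicate 3 of the male buds and without replicate 1 of the female buds. Over the 9 X copies called lower in buds with all features the log2 folds were -1.18 to -0.47.

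PYCpXY31_X, whose counts are below the 10 that naming required, was picked out after its values were seen, and its counts are given as a description. It had 8, 0 and 0 counts in pistillodes at S1, 0 and 2 at S3 and 0 in the other 8 pistillode libraries, against 0, 2 and 5 in pistils at S1, 2, 2 and 5 at S2, 16, 7 and 5 at S3, 11, 9 and 5 at S4 and 12, 18 and 14 at S5. Summed over S1 to S5, that is 10 counts in 13 pistillode libraries against 113 in 15 pistil libraries, a scaled ratio of 0.128 (95% exact interval 0.0596 to 0.243). Of those 10 counts, 8 were in 1 library at S1, where the organs overlapped. Ovules had 15, 13 and 15 counts, female buds 0 and stamens 0 or 1.

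In stamens after meiosis both copies of PXCpXY14 were lower than before it, the copies of PYCpXY5 moved in opposite directions, and the Y copy of PYCpXY7 appeared at S4. Late stamens (S4 and S5) against early ones (S1 to S3) had 3 members higher and 8 lower of 26 tested, beside 26.6% higher and 38.8% lower among all features. The comparison of S4 with S3 alone was added after the data were seen and had 7 members higher and 6 lower, beside 23.7% and 26.6%. In simulated data the share of wrong calls was above the nominal share in both of these comparisons and in that of late against early pistillodes, so a call there is less certain than its adjusted p alone gives. Calls of small size depend on the scaling, since the median of all features in late stamens was -0.11 with TMM, -0.55 with table totals and 0.05 with TMM on X features. With table totals 2 members were higher and 13 lower, and with TMM on X features 5 were higher and 6 lower. For S4 against S3 table totals gave 3 higher and 7 lower.

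PXCpXY14 fell at both copies. PXCpXY14_X had 178, 98 and 152 counts in S4 stamens, against 584, 779 and 757 in S3 stamens, and 146, 156 and 139 in S5 stamens. PXCpXY14_MSY had 228, 178 and 208 counts at S4, against 604, 676 and 732 at S3, and 267, 376 and 225 at S5. No S4 library reached an S3 library at either copy. The log2 fold of S4 over S3 was -2.31 (SE 0.17, edgeR adjusted p = 4.24e-15) at the X copy and -1.69 (SE 0.30, edgeR adjusted p = 1.05e-05) at the Y copy. The Y share was 56.2, 64.5 and 57.8% at S4, against 50.8, 46.5 and 49.2% at S3, a log2 change of the Y to X ratio of 0.62 (SE 0.14, limma adjusted p = 0.000929). In stamens at S1 and S2 the share was 56.8 ± 1.18% and 57.0 ± 2.34%, and S4 libraries overlapped those of both stages. S3 was thus the lowest stamen stage by its mean, and S5, with 65.7 ± 4.53%, the highest. Over late against early stamens the ratio changed by 0.50 (SE 0.09, limma adjusted p = 4.47e-05).

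Pistillodes did not pass the test at either copy, with a late over early log2 fold of 0.16 (SE 0.11, edgeR adjusted p = 0.302) at the X copy and 0.03 (SE 0.20, edgeR adjusted p = 0.97) at the Y copy. The change of late over early stamens minus that of pistillodes was -2.28 (SE 0.15, edgeR adjusted p = 1.77e-16) at the X copy and -1.62 (SE 0.28, edgeR adjusted p = 5.13e-06) at the Y copy, on the log2 scale. For the Y to X ratio that difference was 0.65 (SE 0.13, limma adjusted p = 0.000518). Tested in this way after the data were seen, 3 of 26 members had a higher and 6 a lower change in stamens (edgeR), beside 15.1% and 32.4% of all features, and the ratio had a higher change in 2 of 9 member pairs and a lower one in 1 (limma), beside 11.1% and 7.41% of pairs.

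PYCpXY5 diverged between its copies. PYCpXY5_X rose in late stamens by a log2 fold of 0.98 (SE 0.09, edgeR adjusted p = 1.17e-12), and PYCpXY5_MSY fell, with -1.53 (SE 0.28, edgeR adjusted p = 1.54e-05). The Y copy had 22, 17 and 8 counts in S4 stamens and 37, 21 and 15 in S5 stamens, against 127, 66 and 75 at S1, 50, 105 and 61 at S2 and 53, 37 and 44 at S3. Its Y share was 15.9 ± 3.27%, 9.81 ± 0.423%, 7.86 ± 0.493%, 2.29 ± 1.17% and 1.88 ± 0.599% in stamens at S1 to S5, lower in all 6 late libraries than in any of the 9 early ones. The ratio, which does not depend on scaling, changed by -2.57 (SE 0.25, limma adjusted p = 8.67e-09) on the log2 scale.

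In pistillodes the Y share of PYCpXY5 was 8.75 ± 0.562%, 8.55 ± 2.41%, 8.54 ± 2.55%, 4.65 ± 1.33% and 4.65 ± 1.11% at S1 to S5. There the ratio changed by -0.95 (SE 0.27, limma adjusted p = 0.0161) in late against early libraries, and this call was lost when any 1 of 4 pistillode libraries (S2 replicate 1, S3 replicate 2, S4 replicate 2 or S5 replicate 3) was left out, with -0.82 to -0.86. The change in stamens minus that in pistillodes was -1.62 (SE 0.37, limma adjusted p = 0.00186). Male buds had 12.2 ± 0.816%, and since the file headers list all buds under another folder than the organs, buds and organs were not tested against each other.

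PYCpXY7_MSY had over 3 counts in no stamen group but S4. It had 245, 305 and 109 counts at S4 (replicates 1 to 3), against 0 in all 3 S3 libraries and 0 in all 3 S5 libraries, and 3 counts in all over S1 and S2. Against 3 counts over the S3 group as the floor, S4 was at least 223-fold higher, and against S5 at least 221-fold. Against S1, S2, S3 and S5 together, with 3 counts in 12 libraries, the ratio was 978 (95% exact interval 333 to 4757). Its X copy had 859, 577 and 718 counts at S4, against 481, 526 and 468 at S3, a log2 fold of 0.56 (SE 0.15, edgeR adjusted p = 0.00202), which did not pass with table totals. The X copy's levels by library were 8053 to 10786 CPM per kb at S1 and 9847 to 10730 at S2. Both overlapped the 9861 to 11490 CPM per kb at S4. The Y share was 22.2, 34.6 and 13.2% at S4, a wide spread between replicates, and replicate 2 had the most Y counts and the fewest X counts.

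In pistillodes at S4, 2 of the 3 libraries had 10 counts each at PYCpXY7_MSY and the third had 0, all below the 109 of the lowest S4 stamen library. No pistillode library of another stage had more than 6. Per kilobase, PYCpXY7_MSY reached 6936 ± 3758 CPM per kb in S4 stamens beside 10583 ± 830.2 at the X copy, and 443 ± 477 in S4 pistillodes. The exons counted at the Y copy sum to 48.4% of the X copy's exon length.

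**Figure D4:**
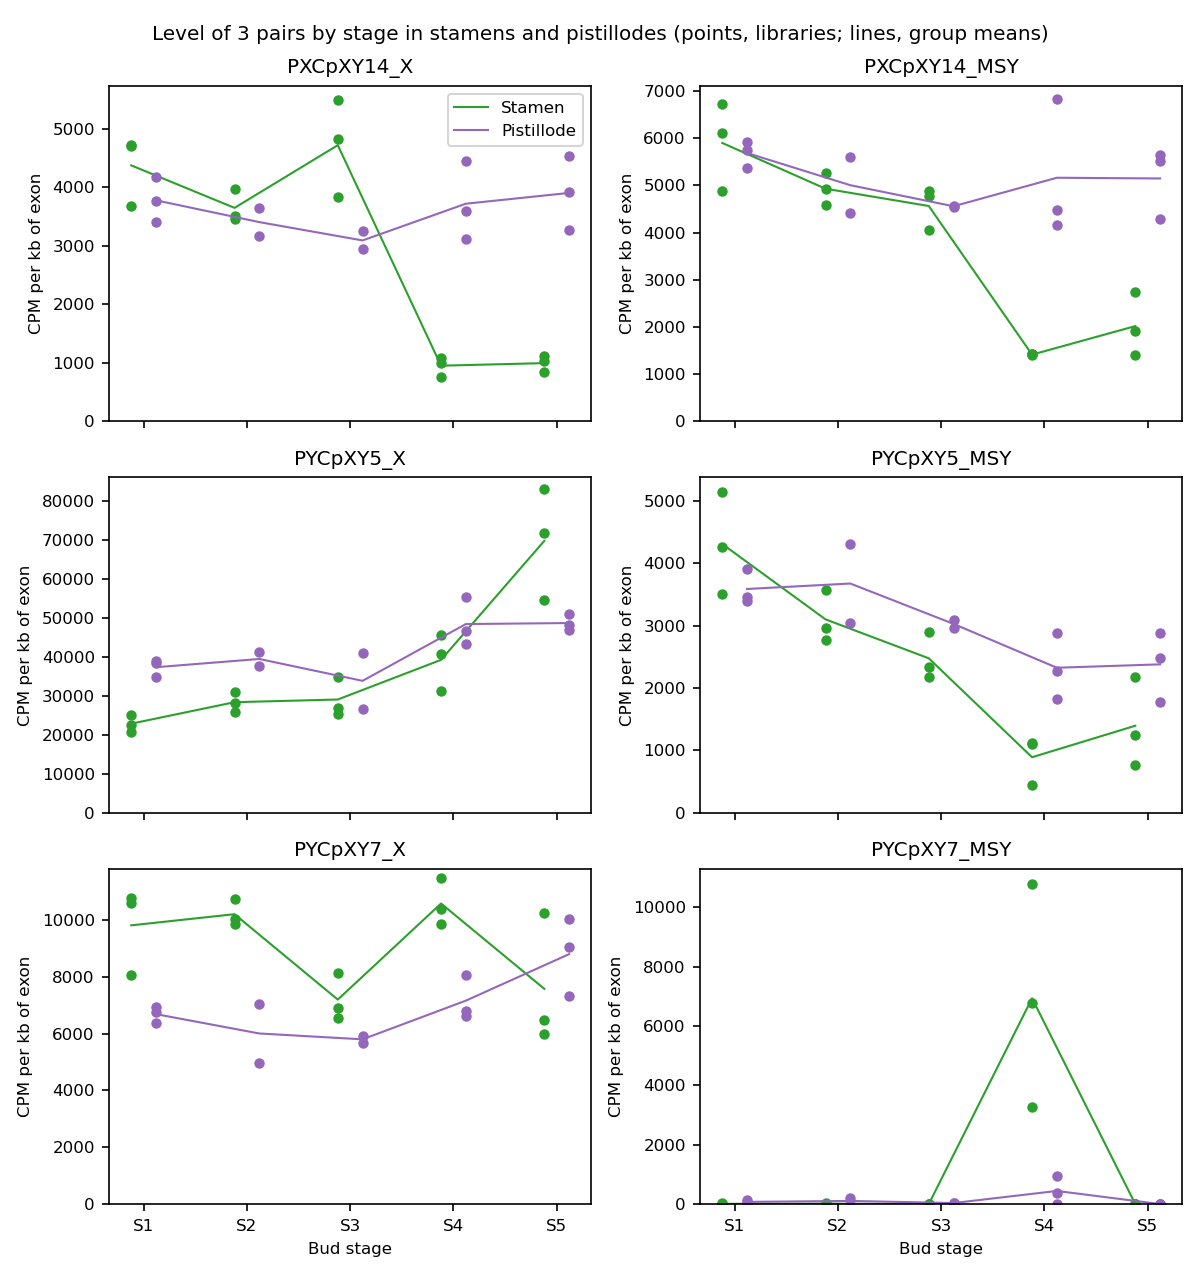
Level (CPM per kb of exon) of the X copy (left) and Y copy (right) of PXCpXY14, PYCpXY5 and PYCpXY7 by bud stage S1 to S5, in stamens (green) and pistillodes (purple), with points for libraries and lines through group means. Both copies of PXCpXY14 are low in S4 and S5 stamens, the copies of PYCpXY5 move in opposite directions there, and PYCpXY7_MSY is high in S4 stamens.

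In S4 against S3 stamens PXCpXY21_MSY, with 0, 3 and 2 counts at S4 against 17, 5 and 8 at S3, fell by a log2 fold of -2.44 (edgeR adjusted p = 0.0182), a call lost with DESeq2, without S4 replicate 1 (-1.83) and without S3 replicate 1 (-1.74). PXYCpXY1_X had -1.17 (edgeR adjusted p = 6.62e-11), PYCpXY5_MSY -1.47 (edgeR adjusted p = 0.00565), PXCpXY6_MSY 1.11 (edgeR adjusted p = 7.69e-07), PXCpXY6_X_v3 0.83 (edgeR adjusted p = 7.21e-06) and PYCpXY28_X_v2 0.67 (edgeR adjusted p = 0.00562), of which the last was lost with table totals. By library, PYCpXY28_X_v2 had 4382 to 4466 CPM per kb at S4 and 2255 to 3151 at S3. It had 4631 to 4808 at S1 and 3565 to 5389 at S2, so S4 was above S3 but not above S1 or S2. The ratio of PYCpXY5 changed by -1.98 (SE 0.39, limma adjusted p = 0.000357).

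Of the other pairs, PXCpXY6 rose in late stamens at the X copy, 0.64 (SE 0.09, edgeR adjusted p = 7.80e-08), and the Y copy, 0.88 (SE 0.11, edgeR adjusted p = 2.11e-09). Its copies are not separate observations, since 17.7% of the pair's female counts fell on the Y copy. PXYCpXY1 fell at the X copy, -1.06 (SE 0.08, edgeR adjusted p = 6.36e-16), and the Y copy, -0.70 (SE 0.24, edgeR adjusted p = 0.0111). PXYCpXY1_X had 157, 136 and 141 counts in S4 stamens, against 333, 327 and 339 in S3 stamens, with no overlap. The call at its Y copy was lost without a filter (-0.44), with a minimum mean of 10 counts (-0.40) and when any 1 of 7 early stamen libraries was left out, all but S2 replicate 1 and S3 replicate 3 (-0.42 to -0.55). With table totals PXCpXY6_X_v3 no longer passed, with a log2 fold of 0.20.

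For the ratio of Y to X counts in late against early stamens, 2 of the 9 member pairs tested were higher (PXCpXY14 and PYCpXY7) and 1 lower (PYCpXY5), beside 11.1% higher and 9.26% lower of the 54 pairs tested. In S4 against S3 the same number passed, 2 higher and 1 lower, beside 13% and 5.56%. The ratio of PYCpXY7 rests on the pseudocount of 0.5 wherever its Y copy had 0 counts. It no longer passed in an edgeR fit of copy by group for late against early stamens.

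Fewer members passed the test of stage in pistillodes and in pistils than in stamens, and the same held for all features. These differences in number were not themselves tested. In late against early pistillodes 2 members were higher, PYCpXY5_X with 0.40 (SE 0.10, edgeR adjusted p = 0.0014) and PYCpXY7_X with 0.37 (SE 0.10, edgeR adjusted p = 0.0046), and 2 lower, PXCpXY6_X_v3 with -0.42 (SE 0.10, edgeR adjusted p = 0.00128) and PXYCpXY4_MSY with -1.78 (SE 0.45, edgeR adjusted p = 0.0019), beside 13.7% and 10.1% of all features. With only the pistillode groups in the fit the call at PXYCpXY4_MSY was lost, at -1.71 (edgeR adjusted p = 0.0597). With table totals this count was 1 higher and 6 lower, and PYCpXY7_X did not pass. PXCpXY6 changed its ratio in favour of the Y copy, 0.48 (SE 0.12, limma adjusted p = 0.00666), with Y shares of 45.6 ± 2.52%, 48.7 ± 5.65%, 53.6 ± 3.74%, 59.1 ± 3.12% and 56.1 ± 1.67% at S1 to S5. Together with PYCpXY5 that makes 1 pair higher and 1 lower of 9, beside 3.7% and 9.26% of pairs.

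In late against early pistils, 1 member was higher and 0 lower of 26 (edgeR), beside 5.04% and 11.5%. The 1 was PYCpXY22_MSY, a Y copy, at a mean of 3 counts in late and 0.667 in early pistils, in plants that carry no Y. The call disappeared without S4 replicate 2, which had 6 of these counts, or without S2 replicate 3. Without S1 replicate 3 there were 2 calls, and without S3 replicate 1 or without S3 replicate 3 there were 5. Ovules against pistils at S5 had 1 member higher, PXYCpXY1_X with 795, 922 and 989 counts in ovules against 513, 825 and 699 in pistils and a log2 fold of 0.38 (SE 0.11, edgeR adjusted p = 0.0262), and 0 lower, beside 5.04% and 3.6%. That call was lost with table totals, with DESeq2, with median-of-ratios size factors, without ovule replicate 3 (0.30) and without pistil replicate 2 (0.34). With median-of-ratios size factors the 1 call was instead PXCpXY6_MSY, lower with -0.50 (edgeR adjusted p = 0.0467). Without ovule replicate 1, 2 members were called.

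Stamens and pistillodes, both male, were compared as means over S1 to S5. Of 26 members 2 were higher in stamens, PYCpXY7_X with 0.39 (SE 0.07, edgeR adjusted p = 6.40e-06) and PYCpXY22_X with 0.22 (SE 0.07, edgeR adjusted p = 0.00849), and 8 lower, beside 16.5% higher and 34.5% lower among all features. The lower ones included both copies of PXCpXY14, -0.60 at the X and -0.64 at the Y, whose stamen levels were low at S4 and S5. Both copies of PYCpXY5 were lower as well, but not at every stage. At PYCpXY5_X, S5 stamens had 54541 to 82882 CPM per kb by library, above the 46854 to 50889 of S5 pistillodes. The mean of PYCpXY5_MSY was higher in stamens than in pistillodes at S1, where libraries overlapped. PXYCpXY1_X was lower by a log2 fold of -0.48 (SE 0.05, edgeR adjusted p = 3.18e-10) and PYCpXY30_X by -1.83 (SE 0.25, edgeR adjusted p = 6.14e-08). Libraries of the organs overlapped at PXYCpXY1_X at each of S1 to S3. At S4 stamens had 2372 to 2701 CPM per kb against 5486 to 7105, and at S5 2836 to 3478 against 5064 to 5644. PYCpXY30_X had only 0 to 10 counts in each stamen library and 3 to 18 in each pistillode library. The call at PYCpXY5_MSY, -0.49 (SE 0.19, edgeR adjusted p = 0.0338), was lost without a filter (-0.36), with a minimum mean of 10 counts (-0.32), with TMM on X features (-0.39) and when any 1 of 22 of the 28 libraries was left out (-0.27 to -0.43). That of PYCpXY22_X was lost with table totals (0.12). With table totals members were 1 higher and 11 lower, with TMM on X features 3 higher and 5 lower.

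For the ratio, 1 of 9 member pairs differed between stamens and pistillodes, beside 3.7% higher and 13% lower of all pairs. This was PYCpXY22, with a log2 change of -0.20 (SE 0.05, limma adjusted p = 0.00248). Its Y share was 50.8 ± 1.08%, 51.7 ± 1.32%, 56.5 ± 2.60%, 54.1 ± 0.237% and 54.6 ± 1.97% in stamens at S1 to S5, against 53.5 ± 1.22%, 56.4 ± 0.2%, 61.1 ± 0.353%, 55.8 ± 2.26% and 57.8 ± 3.75% in pistillodes. Stamens were below pistillodes on average at each stage, though single libraries of the organs overlapped. Without pistillode S1 replicate 3, pistillode S4 replicate 1 or stamen S3 replicate 3, 2 pairs were called. PXCpXY22 had a change of -0.32 (SE 0.12, limma adjusted p = 0.0758), which did not pass with all libraries.

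In pollen, most PX copies that were tested were higher than in S5 stamens, the organ that encloses it, while well expressed PY and PXY copies other than PYCpXY22 were lower. A pollen grain is haploid and carries either the X or the Y. Of 26 members 9 were higher in pollen and 8 lower, beside 25.2% higher and 46.8% lower among all features. Among PX pairs 3 of 4 X copies tested were higher and 0 lower, and 3 of 5 Y copies were higher and 1 lower. Among PY pairs 1 of 7 X copies was higher and 3 lower, and 1 of 5 Y copies was higher and 2 lower. Among PXY pairs 1 of 3 X copies was higher and 1 lower, and 0 of 2 Y copies was higher and 1 lower. The higher one was PXYCpXY2_X, picked out after its values were seen, with 5, 1 and 6 counts in pollen against 1, 3 and 1 in S5 stamens. It passed the filter through the pollen libraries alone and so had to be higher there. It is among the 9 and is given as a description. The median log2 fold was 0.76 over PX X copies, 0.84 over PX Y copies, -1.24 over PY X copies, 0 over PY Y copies, 0.42 over PXY X copies and -1.31 over PXY Y copies, beside -0.92 over the X copies and -1.02 over the Y copies of the other pairs. The median of 0 over PY Y copies is the value of PYCpXY7_MSY, which had 0 counts in pollen and in S5 stamens. Both PXY medians include a copy of PXYCpXY4, for which it is not settled which copy is the Y copy. The difference between classes was not tested. Pollen libraries had totals of 27741 to 28555 counts, against 96181 to 106846 in S5 stamens, and the median of all features was -0.57 with TMM, -0.18 with median-of-ratios size factors and -0.32 with table totals. With median-of-ratios size factors 10 members were higher and 7 lower.

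PXCpXY14, low in S4 and S5 stamens, was higher in pollen at both copies, by log2 folds of 1.91 (SE 0.17, edgeR adjusted p = 1.53e-13) at the X copy and 1.71 (SE 0.30, edgeR adjusted p = 3.22e-06) at the Y copy. It had 187, 189 and 186 X counts and 324, 364 and 272 Y counts in pollen, against 146, 156 and 139 X counts and 267, 376 and 225 Y counts in S5 stamens with larger totals. PXCpXY6 was higher at both copies as well, 1.05 (SE 0.15, edgeR adjusted p = 2.66e-08) at the X copy and 1.21 (SE 0.17, edgeR adjusted p = 3.56e-08) at the Y copy. With 17.7% of female counts at its Y copy, the copies of PXCpXY6 are not separate observations. The ratios of PXCpXY14 and PXCpXY6 did not pass, at -0.18 and 0.16.

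PXCpXY10 was the member whose copies parted in pollen. The X copy was higher, 0.31 (SE 0.10, edgeR adjusted p = 0.00682), and the Y copy lower, -1.16 (SE 0.14, edgeR adjusted p = 2.17e-09). Pollen libraries had 72, 66 and 92 Y counts and 122, 126 and 115 X counts, and a Y share of 37.1, 34.4 and 44.4%. S5 stamens had 442, 505 and 576 Y counts, 231, 322 and 317 X counts and a Y share of 65.7, 61.1 and 64.5%. All other male libraries were at 60.0% or above, so the pollen libraries stood apart from the whole male set. The log2 change of the ratio was -1.48 (SE 0.12, limma adjusted p = 4.16e-10). Female libraries, with no Y, had shares of 5.35 to 8.72% at this copy.

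PYCpXY22 moved the other way. Its Y copy was higher in pollen, 0.94 (SE 0.28, edgeR adjusted p = 0.00291), and its X copy less so, 0.35 (SE 0.15, edgeR adjusted p = 0.0395), with a Y share of 63.4, 63.1 and 68.2% in pollen against 53.2, 56.9 and 53.9% in S5 stamens. The ratio changed by 0.62 (SE 0.10, limma adjusted p = 9.39e-06).

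The other well expressed members of PY and PXY were lower in pollen. PXYCpXY1_X had 1, 2 and 1 counts in pollen, against 160, 156 and 224 in S5 stamens, a ratio of summed scaled counts of 0.022 (95% exact interval 0.00597 to 0.0567). PYCpXY28_X_v2 had 5, 0 and 8 counts, against 224, 204 and 295, with a ratio of 0.0534 (95% exact interval 0.0283 to 0.0919), and its Y copy 4, 0 and 5 against 213, 223 and 285. These pairs were thus at 0 to 8 counts per copy in each pollen library. The log2 folds were -5.45 (edgeR adjusted p = 4.35e-25) at PXYCpXY1_X, -4.22 (edgeR adjusted p = 4.07e-16) and -4.74 (edgeR adjusted p = 1.39e-15) at the X and Y copies of PYCpXY28, and -2.64 (edgeR adjusted p = 8.40e-05) at PXYCpXY1_MSY, which had 2, 1 and 1 counts against 21, 27 and 28. PYCpXY7_X was lower by a log2 fold of -2.26 (SE 0.17, edgeR adjusted p = 1.46e-15) and PYCpXY5_X by -1.24 (SE 0.15, edgeR adjusted p = 7.38e-10).

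Among the 9 pair ratios, 3 were higher and 2 lower in pollen than in S5 stamens, beside 20.4% and 25.9% of 54 pairs. Those of PXYCpXY1, with 1 or 2 counts a copy in pollen, of PYCpXY7, with 0 Y counts in both groups, and of PYCpXY28, with 0 to 8 counts, rest on the pseudocount of 0.5 and are not read further. The edgeR fit of copy by group kept 2, 1 higher and 1 lower.

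**Figure D5:**
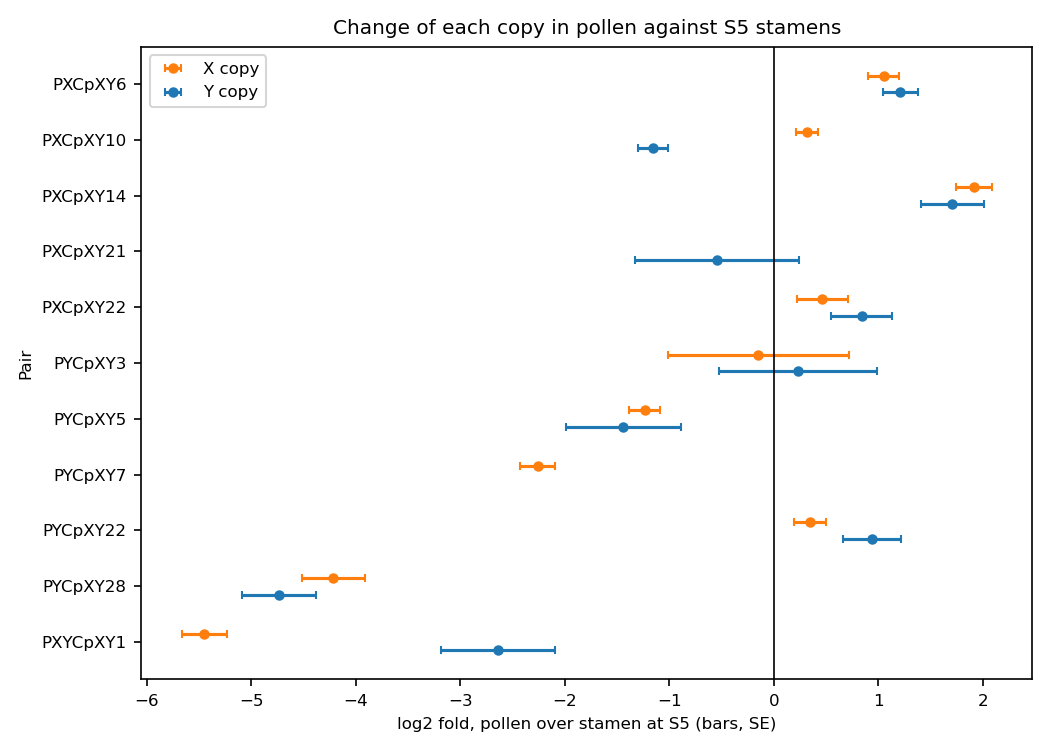
Log2 fold of pollen over S5 stamens (3 libraries each) for the X copy (orange) and Y copy (blue) of each pair, with bars of 1 SE, for copies with a mean of at least 10 counts in either group. PXCpXY6, PXCpXY14 and PYCpXY22 lie right of 0 at both copies, PYCpXY5, PYCpXY28 and PXYCpXY1 left of it, and PXCpXY10 has its X copy right and its Y copy left of 0.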

How the data were processed

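RNA-seq counts of 55 papaya flower libraries were used, 1 deposited table of counts per library. Per the submitters' processing notes, the authors used HISAT2 2.0.5 and featureCounts 1.5.2, with Trimmomatic 0.36, SAMtools 1.3.1 and FastQC 0.11.5. Per the file headers, counts were made with featureCounts 2.0.0, on exons of sex-linked features only, from read pairs, with no strand setting, and a read with several places of alignment was counted at every one. Near-identical copies therefore share reads, and all levels are relative to the sex-linked total. A genome build is not named in the sources used here. No column was left unused.

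Features were tested with edgeR 4.0.16 (quasi-likelihood test, TMM, filterByExpr by group, 1 fit over 19 groups, prior count 0.125), which kept 139 features, 26 of them members, 14 X and 12 Y copies. The log2 ratio of Y to X counts, with a pseudocount of 0.5, was tested with limma 3.58.1 in male libraries for pairs with a mean of at least 20 counts, 54 pairs of which 9 were members. P-values were adjusted by Benjamini-Hochberg over all features or pairs tested, with a threshold of 0.05. Alternatives were other scalings, DESeq2 1.42.0, other filters and pseudocounts, a replicate block and leaving out each library. Named in each comparison were up to 5 members a direction with the largest called change and a mean of at least 10 counts, and up to 4 pair ratios. Levels are given in full for the 3 pairs of each class with the most counts, except PXYCpXY2, whose counts are given. Members and lists were chosen with earlier results of these data known, and the comparison of S4 with S3 stamens and that of late against early changes between stamens and pistillodes were added after the data were seen. The tests were tested on simulated data, in which known changes were mostly recovered and wrong calls of the late against early stamen and pistillode comparisons and of S4 against S3 exceeded the nominal share. The lowest chi-square per degree of freedom between 2 libraries of a group was 1.46, so none were treated as the same library. Intervals of shares and ratios are exact binomial (95%) and cover counting error only, and a count of 0 is bounded by 3 counts.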

Additional observations from a re-analysis of the deposited data

Results flagged for a closer look

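The change of late (S4, S5) over early (S1 to S3) stamens differed from that of pistillodes at 9 members tested as features and at 3 pair ratios, by a test of the difference itself (edgeR or limma, Benjamini-Hochberg adjusted over all features or pairs). Of the 9 features 3 were higher and 6 lower, beside 15.1% and 32.4% of all 139 features, and of the ratios 2 were higher and 1 lower, beside 11.1% and 7.41% of all 54 pairs. Values are the log2 change in stamens minus that in pistillodes. Both copies of PXCpXY14 had a lower change in stamens, -2.28 at the X copy (edgeR adjusted p = 1.77e-16) and -1.62 at the Y copy (edgeR adjusted p = 5.13e-06). PXYCpXY1_X had -0.99 (edgeR adjusted p = 2.97e-10) and PYCpXY30_X, with few counts, -1.67 (edgeR adjusted p = 0.00941). Both copies of PXCpXY6 had a higher change in stamens, 1.05 at the X copy (edgeR adjusted p = 1.54e-08) and 0.82 at the Y copy (edgeR adjusted p = 3.72e-05). These copies are not separate observations, since 17.7% of the pair's female counts fell on the Y copy. The copies of PYCpXY5 went opposite ways, with 0.57 at the X copy (edgeR adjusted p = 0.000492) and -0.999 at the Y copy (edgeR adjusted p = 0.0363). PYCpXY7_X had -0.37 (edgeR adjusted p = 0.0274).

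For the ratio of Y to X counts the difference was 0.65 at PXCpXY14 (limma adjusted p = 0.000518), -1.62 at PYCpXY5 (limma adjusted p = 0.00186) and 4.30 at PYCpXY7 (limma adjusted p = 0.00186). The last depends on the pseudocount of 0.5, since the Y copy of PYCpXY7 had 0 counts in most of these libraries.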

How the results depend on the processing

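Of 74 named results, 56 kept their direction and their side of the threshold in all alternatives run, and 18 lost the call in at least 1. Over 1566 alternative values, 1499 kept both, 67 lost the call (41 of these with 1 library left out) and 0 turned round. In ovules against pistils the 1 member called became 0 with table totals and 0 with DESeq2, and 0 to 2 with 1 library left out, and with median-of-ratios size factors it was another member, a Y copy that was lower. In late against early pistillodes the 4 members became 7 with table totals. In late against early pistils the 1 member became 2 with median-of-ratios size factors, 2 with table totals, 2 with only the groups compared in the fit, 3 with TMM on X features, 3 with DESeq2 and 3 without a filter, and 0 to 5 with 1 library left out. The ratio in stamens against pistillodes had 1 pair called, 2 with the replicate block, 2 with the replicate block within stage, and 1 to 2 with 1 library left out. With the replicate block within stage PYCpXY5_MSY in stamens against pistillodes missed the threshold, at -0.42 (edgeR adjusted p = 0.0504). The pollen ratio had 5 pairs called, 3 with the replicate block within stage, where PYCpXY22 missed the threshold at the same change of 0.62 (limma adjusted p = 0.0546), and 2 in the edgeR fit of copy by group. The ratio in late against early pistillodes had 2 pairs called, and 1 to 2 with 1 library left out. The causes of these moves were not tested. Same-numbered libraries of 2 organs correlated at -0.36 to 0.19, which gave no sign that the numbers pair the libraries. With 2 or 3 libraries a group these correlations cannot exclude a pairing. The replicate block moved no other count of members by over 1.5 times. Taking the X version with most counts changes nothing, as no member has several versions. Counts limit the 6 pairs with the fewest reads, and the scaling limits small folds between sexes and in late stamens, where leaving out a library or changing the filter shifts TMM as well.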
